A study of Homo sapiens with 12 samples.

Results

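The genes described here were the YAP effector gene YAP1 and 7 genes widely used as readouts or feedback members of the Hippo-YAP pathway, namely CTGF (now CCN2), CYR61 (now CCN1), ANKRD1, AMOTL2, AXL, LATS2 and AJUBA. They were taken by gene name, 8 of the 60504 gene identifiers listed in every library, and were chosen with earlier results of these data known. Their abundance was measured by RNA sequencing in 12 libraries of T24, a cell line from a human bladder carcinoma. Of these, 2 were labelled knockout U11 and were read against 2 libraries labelled untreated (the knockout comparison), and 6 were labelled overexpression U11 and were read against 2 further untreated libraries (the overexpression comparison). U11 is the small nuclear RNA that recognises the 5′ splice site of minor (U12-type) introns, and the study asked how gene expression in bladder cancer cells changes with it. According to the methods, the knockout was made with Cas9 and paired guide RNAs and the overexpression with a stably transfected pcDNA-U11 plasmid, and monoclonal cells were grown in both cases, so that a line can differ from T24 as a clone. The overexpression libraries carried the line labels 79, 86 and 87 with 2 libraries each, whose meaning the labels do not give. Nothing in the labels says that the libraries of a group came from separate cultures, so the P values measure the spread between these libraries, which may be technical.

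YAP1 encodes a transcriptional coactivator that the Hippo kinases MST and LATS phosphorylate and hold in the cytoplasm. When the kinases are inactive, YAP and its paralog TAZ enter the nucleus, bind TEAD factors and switch on genes for matrix-associated ligands, cytoskeletal proteins and the pathway's own inhibitors. YAP activity is mostly set after transcription, and in urothelial and other carcinoma cells it is known to respond to cell density, adhesion and stiffness, so the targets are commonly read in place of YAP1 mRNA.

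The upstream sequences of CTGF and ANKRD1 are shown because both are textbook TEAD-bound promoters and because these genes moved apart in the lines described below. The 250 bases before the annotated start were read from RefSeq (GRCh38.p14), for CTGF at chr6:131951373-131951622 and for ANKRD1 at chr10:90921088-90921337, both on the minus strand and written 5′ to 3′ along the gene. Capitals mark GGAATG, the core of the TEAD binding motif, which was searched with its reverse complement CATTCC on both strands, overlaps allowed.
CTGF: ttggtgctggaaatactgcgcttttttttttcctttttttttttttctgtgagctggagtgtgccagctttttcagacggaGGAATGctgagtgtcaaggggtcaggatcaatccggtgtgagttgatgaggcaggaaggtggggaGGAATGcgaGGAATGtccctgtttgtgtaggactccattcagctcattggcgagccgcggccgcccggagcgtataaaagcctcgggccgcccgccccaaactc
ANKRD1: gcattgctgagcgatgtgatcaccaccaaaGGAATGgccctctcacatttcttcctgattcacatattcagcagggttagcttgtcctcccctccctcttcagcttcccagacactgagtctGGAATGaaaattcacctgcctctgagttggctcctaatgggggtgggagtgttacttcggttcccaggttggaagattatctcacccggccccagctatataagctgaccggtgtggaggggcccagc
CTGF held 3 such motifs, beginning 169, 104 and 95 bases before the start, and ANKRD1 held 2, at 220 and 128 bases. These distances hold for the RefSeq starts. In the annotation used for quantification ANKRD1 begins further upstream, at 90921276, so part of its window lies inside the gene there. Of all 35116 RefSeq windows of this length, 11.9% held at least 1 such motif, 0.94% at least 2 and 0.0826% at least 3. Of the 8 genes, 7 had an entry (all except CYR61). YAP1 had 1 motif, LATS2 had none, and AMOTL2, AXL and AJUBA had 1 in the window of 1 of their 2 annotated starts. A match in these letters is a description of the window and not a measured binding site.

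The 8 genes lie on 8 chromosomes of hg38, and all are protein-coding. CTGF (ENSG00000118523, chromosome 6, 131948176 to 131951373) and ANKRD1 (ENSG00000148677, chromosome 10, 90912096 to 90921276) lie on the minus strand, and CYR61 (ENSG00000142871, chromosome 1, 85580761 to 85583962) on the plus strand. AMOTL2 (ENSG00000114019) spans 134355874 to 134375479 of chromosome 3 on the minus strand, AXL (ENSG00000167601) spans 41219203 to 41261766 of chromosome 19 on the plus strand, and LATS2 (ENSG00000150457) spans 20973032 to 21061547 of chromosome 13 on the minus strand. AJUBA (ENSG00000129474) spans 22971174 to 22982642 of chromosome 14 on the minus strand and YAP1 (ENSG00000137693) 102110461 to 102233423 of chromosome 11 on the plus strand. CTGF overlaps the opposite-strand entry RP11-69I8.3, which was listed at 0.346 to 2.32 TPM in the knockout comparison and at 5.63 to 13.3 TPM in the overexpression comparison. AXL overlaps CTD-2195B23.3 on the opposite strand, listed at no more than 4.63 TPM. Whether strand was used in quantification is not given in the sources used here, so reads of a gene and such an entry may not be told apart. The other overlapping entries stood below 1 TPM on average.

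TPM (an abundance scaled by transcript length and with an equal sum for all libraries) was used throughout. An estimated 9.07 to 15.33 gigabases were aligned per library, inferred from the highest ratios of coverage to FPKM. The mean coverage of the 8 genes was 63.5 aligned bases per position or more, with LATS2 the thinnest. The comparisons differed in library content: 89 histone genes together took 27661.8 to 34278.5 TPM in the 4 libraries of the knockout comparison and 103.4 to 179.8 TPM in the other 8. The labels give the same RNA type and kit for all 12 and differ in the library name prefix (R18051 against R17018 and R18019). Levels were therefore not compared between the comparisons by a test, and each was read against its own controls. U11 itself went against the knockout label, with 21.4 and 23.8 TPM in the knockout controls but 31.6 and 37.4 TPM in the libraries carrying that label. In the overexpression comparison its controls had 0.0334 and 0.623 TPM, with 0.183 and 0.412 TPM in line 79, 3.98 and 3.72 TPM in line 86 and 61.9 and 53.6 TPM in line 87, so line 79 did not exceed its controls. T24 had KRT7, KRT8, KRT18, KRT19 and VIM among 6 or 7 of 11 bladder cancer line markers at 1 TPM or more, while the uroplakins UPK1B, UPK2 and UPK3A and the epithelial cadherin CDH1 stood at 0.437 TPM or less in every library.

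In the knockout controls AXL was the most abundant of the 8 genes at a mean of 213 TPM, followed by CTGF, CYR61 and ANKRD1 at 126 to 140 TPM, YAP1 at 61.6 TPM, AJUBA and AMOTL2 at 43.8 and 43.1 TPM and LATS2 at 11 TPM. CTGF and CYR61 overlapped in their libraries, as did CYR61 and ANKRD1, and AJUBA and AMOTL2. In the overexpression controls CYR61 led at 773 ± 16.9 TPM (SD, n = 2), ahead of AXL at 406 ± 40.0 and CTGF at 291 ± 7.26 TPM. YAP1 (155 TPM), ANKRD1 (144 ± 4.63 TPM) and AJUBA (117 ± 1.35 TPM) came next, and LATS2 was again lowest at 21.3 ± 1.08 TPM. CYR61 thus stood at 133 and 143 TPM in one pair of untreated T24 libraries and at 785 and 761 TPM in the other, while ANKRD1 stood at 116 and 136 against 141 and 148 TPM. The 10 highest genes took unlike shares of the equal TPM sum in the pairs, so these levels are not directly comparable between them.

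**Figure D1:**
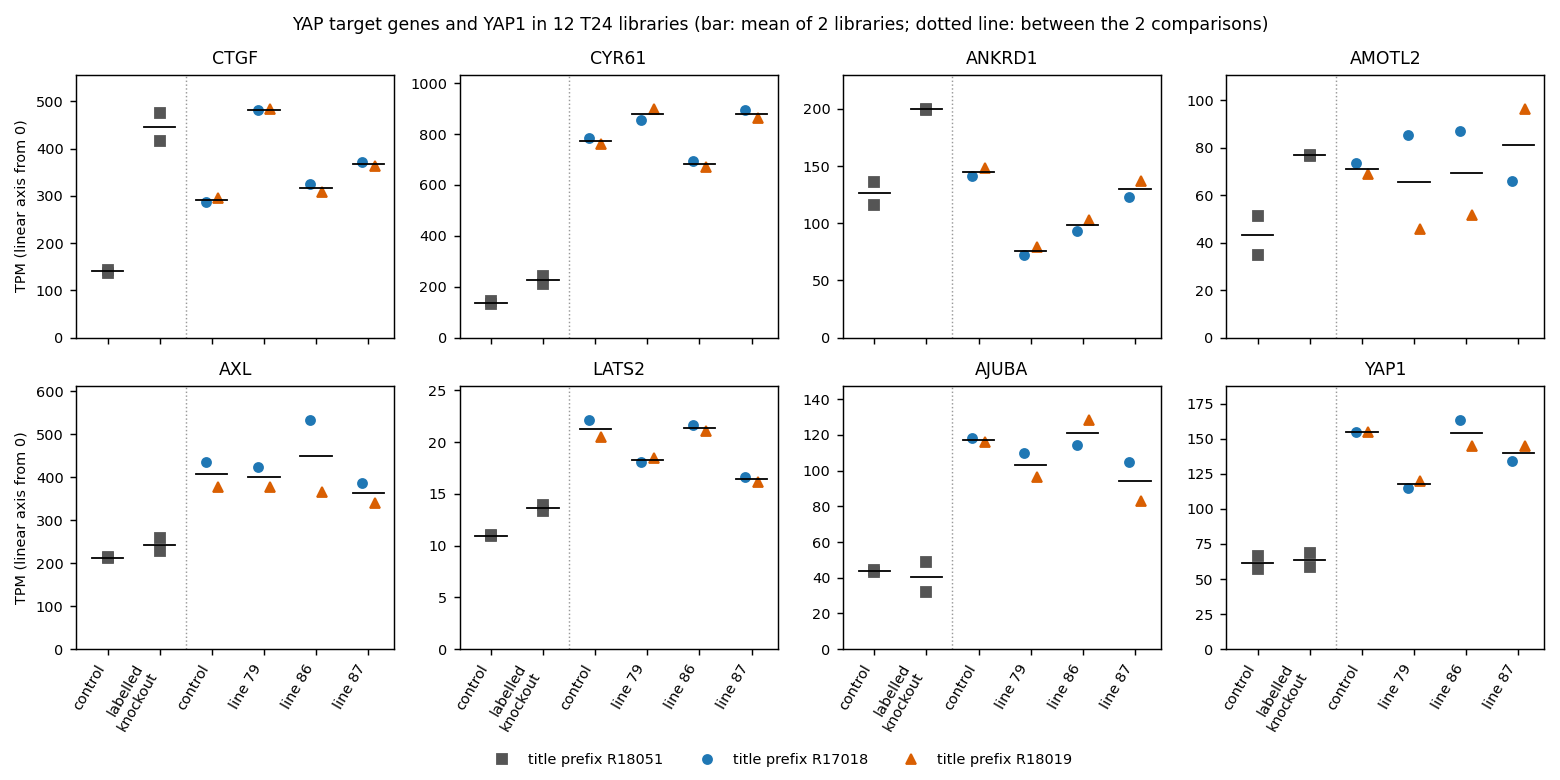
Abundance (TPM, linear axis from 0) of the 8 genes in all 12 libraries, 1 panel a gene. Each point is a library, each bar the mean of 2 libraries, and point shape and colour give the prefix of the library name. CTGF is above its controls in every knockout-labelled and overexpression library, while ANKRD1 is above its controls in the former and below them in the latter.

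In the knockout comparison, classical YAP target genes rose in the knockout-labelled libraries and YAP1 mRNA itself showed no call. CTGF, CYR61, ANKRD1 and AMOTL2 were called up, 4 of 8 genes, and none was called down. Across all 14356 genes tested 8.61% were called up, 3.15% down and 11.8% in either direction (limma, unadjusted P under 0.05 and at least 1.5-fold). After Benjamini-Hochberg adjustment over all genes, 3 of the 8 (all but AMOTL2) were still called up, against 4.78% of all genes. The median log2 fold change of the 8 genes was 0.48, against 0.11 for all genes tested. Both knockout-labelled libraries lay above both controls for 6 of the 8 genes, which was so for 39.9% of all genes. In bulk RNA, more cells expressing a gene and more RNA per cell cannot be told apart.

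CTGF, a secreted matricellular protein and the most used YAP readout, measured 137 and 144 TPM in the controls against 475 and 415 TPM in the knockout-labelled libraries. The groups were far apart, and CTGF ranked 64 by size of rise among all 14356 genes. Its log2 fold change was 1.66 ± 0.10 (SE, n = 2 and 2), or 3.15-fold, with a limma adjusted P of 0.00644. RP11-69I8.3 on its opposite strand was listed at 0.346 to 2.32 TPM in these 4 libraries. CYR61, the paralogous secreted ligand of integrins, measured 133 and 143 TPM in the controls against 244 and 209 TPM in the labelled libraries. The groups did not overlap, and the rise was 0.71 ± 0.11 on the log2 scale (1.63-fold, limma adjusted P = 0.0326). ANKRD1, a nuclear and sarcomeric ankyrin repeat protein, measured 116 and 136 TPM in the controls against 200 and 199 TPM in the labelled libraries. Its rise of 0.66 ± 0.10 (1.58-fold, limma adjusted P = 0.0347) was just over the 1.5-fold limit.

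Among the pathway's own inhibitors, AMOTL2, an angiomotin family scaffold that binds and retains YAP, measured 51.4 and 34.9 TPM in the controls against 76.6 and 76.8 TPM in the labelled libraries. The labelled libraries were nearly equal and the controls were not, and the log2 fold change was 0.84 ± 0.19 with an unadjusted P of 0.00791 and an adjusted P of 0.069 (limma). LATS2, the kinase that phosphorylates YAP and is itself a YAP target, measured 10.9 and 11 TPM against 13.9 and 13.4 TPM. All labelled libraries lay above the controls, but at 1.23-fold (limma adjusted P = 0.151) it was not called. AJUBA, by contrast a LIM protein that restrains LATS kinases at junctions, was at 43.2 and 44.5 TPM against 49.0 and 32.0 TPM, 1 library on each side of the controls. Its log2 difference had a 95% interval from -0.69 to 0.41.

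AXL, a receptor tyrosine kinase induced by YAP, measured 212 and 214 TPM in the controls against 258 and 229 TPM in the labelled libraries. The groups did not overlap, and the log2 difference of 0.19 ± 0.09 had a 95% interval from -0.05 to 0.42 (limma adjusted P = 0.237). YAP1 was at 57.0 and 66.2 TPM against 68.5 and 58.9 TPM. Its groups overlapped, and the interval of the log2 difference ran from -0.28 to 0.38, so a change within that interval was not detectable with these libraries.

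The size of these calls depended on the scaling of the libraries. In TPM 73.2% of the 1688 genes called rose (1236 up, 452 down), whereas scaling by median ratios gave 775 up and 776 down and moved the median of all genes from 0.11 to -0.02 on the log2 scale. Relative to the median of all genes, CTGF was 1.55 higher, AMOTL2 0.73, CYR61 0.60 and ANKRD1 0.55, LATS2 0.19 and AXL 0.08, while YAP1 lay at -0.06 and AJUBA at -0.25. With median ratio scaling CTGF kept its call at 1.51 and AMOTL2 at 0.70, whereas CYR61 (0.56) and ANKRD1 (0.51) fell short of 1.5-fold. In FPKM ANKRD1 (0.56) fell short as well, while CTGF (1.55), AMOTL2 (0.74) and CYR61 (0.61) kept their calls. Without knockout control replicate 1 the value of ANKRD1 was 0.55, and without knockout control replicate 2 that of AMOTL2 was 0.57, both short of 1.5-fold.

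Of 22 conserved YAP/TAZ target genes, all tested, 11 were called up in the knockout-labelled libraries and none was called down. After adjustment over all genes 9 were called, and the median log2 fold change was 0.59. Of all genes tested, 8.61% were called up and 4.78% after adjustment. Without regard to the call, 18 of the 22 targets were higher and 4 were lower than in the controls. These 22 include 6 of the 8 genes described. Among the remaining 16, 7 were called up and 6 were called after adjustment, with a median of 0.56 against 0.11 for all genes. NT5E, the ecto-enzyme CD73 that makes adenosine, went from 14.6 and 16.6 TPM to 145 and 135 TPM, a log2 fold change of 3.09 ± 0.11 (limma adjusted P = 0.00276). IGFBP3, an insulin-like growth factor carrier, rose by 1.67 ± 0.12 (adjusted P = 0.00853) and TGFB2, a transforming growth factor beta ligand, by 1.02 ± 0.13 (adjusted P = 0.0243), the latter from 15.1 and 17.2 TPM to 36.5 and 31.2 TPM. GADD45A, a stress-induced growth arrest gene (0.81), CRIM1, a BMP-binding transmembrane protein (0.61), and F3, coagulation tissue factor (0.60), rose with adjusted P values of 0.0252, 0.0439 and 0.0448 in limma. CCDC80, a matrix protein, rose by 0.78 at the unadjusted threshold alone, with an adjusted P of 0.109. The lists were written with earlier results of these data known, so their counts are descriptions.

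Of 9 genes for the pathway's nuclear effectors, 8 passed the TPM minimum, and TEAD1 (0.60 ± 0.15, limma adjusted P = 0.0821) and VGLL3 (0.72 ± 0.13, adjusted P = 0.0458) rose, against 8.61% of all genes called up. TEAD1 is a DNA-binding partner of YAP and VGLL3 a cofactor that competes for TEADs. WWTR1, which encodes TAZ, measured 38.0 and 38.5 TPM in the controls against 39.4 and 38.1 TPM in the labelled libraries. Of 26 genes for the kinase core and its regulators, 25 were tested and 4 rose (AMOT, AMOTL2, FAT4 and WWC2), against 8.61% of all genes called up. After adjustment AMOT alone was called, a share near the 4.78% of all genes. AMOT, the founding angiomotin, went from 1.03 and 0.936 TPM to 5.60 and 4.39 TPM (1.59 ± 0.15, limma adjusted P = 0.0157). FAT4, an atypical cadherin, and WWC2, a KIBRA paralog, rose by 0.68 and 0.66 with adjusted P values of 0.0567 and 0.0709. No gene of these lists was called down, though 1 of the 8 effectors and 8 of the 25 kinase core and regulator genes were lower than in the controls. The median of the kinase core and regulators was 0.20 and that of the effectors 0.12, near the 0.11 of all genes.

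Markers of other cell types also differed in this comparison. Their sum over 10 genes was 6.57 to 8.85 TPM in the controls and 3.16 to 3.35 TPM in the labelled libraries. The difference sat in the endothelial cadherin CDH5, which went from 4.85 and 4.75 TPM to 0.0316 and 0.0293 TPM. Without CDH5 the sums were 1.82 to 3.99 and 3.13 to 3.31 TPM. The bladder line markers VIM and GATA3 were called up and KRT19 was called down. The part of these differences in the results for the YAP targets was not tested.

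In the overexpression comparison none of the 8 genes was called, against 1.93% of the 15768 genes tested, yet CTGF and ANKRD1 were displaced in opposite directions. The controls held CTGF at 286 and 296 TPM, and the 6 overexpression libraries at 308 (lowest), 367 (median) and 484 (highest) TPM. All 6 lay above the controls, as they did for 4.62% of all genes. The log2 fold change was 0.39 ± 0.18 (SE, n = 6 and 2), with an unadjusted P of 0.0583 and an adjusted P of 0.852 (limma). This fit treated the 2 libraries of each line as independent, although the lines differed, as described below. ANKRD1 measured 141 and 148 TPM in the controls, against 72.4 (lowest), 98.3 (median) and 137 (highest) TPM in the overexpression libraries. All 6 lay below the controls, as they did for 5.24% of all genes, and the log2 fold change was -0.54 ± 0.23 (unadjusted P = 0.0406, adjusted P = 0.82, limma). It did not reach 1.5-fold.

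The other 6 genes overlapped between the overexpression libraries and their controls. CYR61 ranged from 669 to 899 TPM around controls at 785 and 761 TPM, and AXL from 340 to 532 TPM around controls at 435 and 378 TPM. AMOTL2 ranged from 45.7 to 96.3 TPM with controls at 73.4 and 68.9 TPM, a ratio of highest to lowest of 2.11 that was the largest among the 8 genes in this comparison. LATS2 (16.2 to 21.7 TPM), AJUBA (82.8 to 128 TPM) and YAP1 (115 to 163 TPM) had log2 differences of -0.19, -0.16 and -0.18, whose 95% intervals all held 0. Of the 8 libraries, 4 had names with the prefix R17018 and 4 with R18019, each with 1 control and 1 library of every line. Within these prefixes CTGF differed from its control by 0.43 and 0.35 and ANKRD1 by -0.58 and -0.50, whereas AMOTL2 differed by 0.10 and -0.17 and AXL by 0.03 and -0.07.

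The spread of CTGF and ANKRD1 followed the line labels. Over the lines 79, 86 and 87, 5 of the 8 genes differed (limma F test, adjusted P under 0.05), against 16.0% of all genes. These were CTGF (adjusted P = 0.00295), ANKRD1 (0.00675), CYR61 (0.0106), YAP1 (0.0447) and LATS2 (0.0475). AJUBA (0.203), AXL (0.549) and AMOTL2 (0.761) were not called. The calls of YAP1 and LATS2 were close to the threshold, and both were lost in FPKM, with median ratio scaling, with quantile normalization and without any single library of this comparison. The comparisons of lines with controls use the same 2 controls.

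CTGF was highest in line 79 at 481 and 484 TPM, then in line 87 at 371 and 364 TPM and in line 86 at 324 and 308 TPM, with controls at 286 and 296 TPM. No library of a line overlapped another line or the controls. Line 79 exceeded the controls by 0.73 ± 0.06 on the log2 scale (1.65-fold, limma adjusted P = 0.00112) and was called, whereas line 87 exceeded them by 0.33 ± 0.06 (1.26-fold, adjusted P = 0.0331), short of the 1.5-fold limit, and line 86 by 0.12 (adjusted P = 0.446). In both comparisons of line 79 with another line the adjusted P was under 0.05, with differences of 0.61 from line 86 (adjusted P = 0.00203) and 0.39 from line 87 (adjusted P = 0.0084). Lines 86 and 87 differed by -0.22 (adjusted P = 0.0827).

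ANKRD1 was lowest in line 79 at 72.4 and 79.3 TPM, then in line 86 at 93.6 and 103 TPM and in line 87 at 123 and 137 TPM, below controls at 141 and 148 TPM. Line 79 lay below the controls by -0.92 ± 0.09 on the log2 scale (0.528 of the control level, limma adjusted P = 0.00268) and was called down. Line 86 differed by -0.55 ± 0.09 (adjusted P = 0.0409, short of 1.5-fold) and line 87 by -0.15 (adjusted P = 0.45). Between lines, 79 was below 86 by -0.37 (adjusted P = 0.0433) and below 87 by -0.77 (adjusted P = 0.00419), and 86 differed from 87 by -0.40 (adjusted P = 0.0544). CTGF and ANKRD1 were thus the 2 genes called in line 79, 1 up and 1 down, against 2.43% of all genes called up, 5.52% down and 7.95% in either direction.

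CYR61 separated the lines in another order, with 857 and 899 TPM in line 79, 896 and 863 TPM in line 87 and 694 and 669 TPM in line 86. Lines 79 and 87 overlapped, with a log2 difference of -0.003 (95% interval -0.14 to 0.13), and line 86 lay below both, by 0.36 from line 79 (limma adjusted P = 0.00983) and with a difference of -0.37 from line 87 (adjusted P = 0.0163). Against the controls at 785 and 761 TPM, the lines differed by 0.18, -0.18 and 0.19 (79, 86 and 87), none past an adjusted P of 0.05.

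YAP1 was at 115 and 120 TPM in line 79, 163 and 145 TPM in line 86 and 134 and 145 TPM in line 87, with both controls at 155 TPM. Line 79 lay below the controls by -0.39 ± 0.08 (0.762 of the control level, limma adjusted P = 0.0298), short of 1.5-fold, and below line 86 by -0.38 (adjusted P = 0.0258). LATS2 was at 18.1 and 18.5 TPM in line 79, 21.7 and 21.1 TPM in line 86 and 16.6 and 16.2 TPM in line 87, with controls at 22.1 and 20.5 TPM. Lines 86 and 87 differed by 0.36 (adjusted P = 0.0432), and line 87 lay below the controls by -0.36 (adjusted P = 0.062).

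AMOTL2 and AXL varied between libraries of the same line as much as between lines. AMOTL2 was at 85.1 and 45.7 TPM in line 79, 86.9 and 51.6 TPM in line 86 and 65.9 and 96.3 TPM in line 87. The library named with R17018 was the higher in lines 79 and 86 and the lower in line 87. AXL was at 532 and 365 TPM in line 86, 424 and 377 TPM in line 79 and 386 and 340 TPM in line 87, and the R17018 library was the higher in every line and in the controls. None of the 8 genes was called in line 86 or line 87, against 3.6% and 5.13% of all genes.

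**Figure D2:**
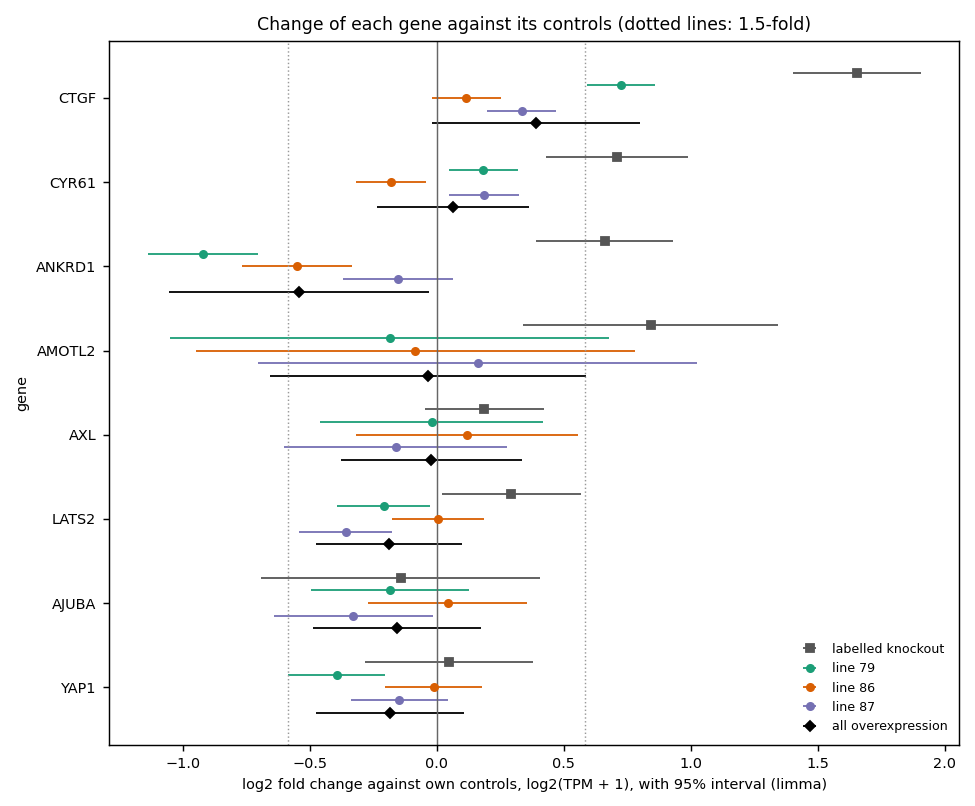
Log2 fold change of each gene against its own controls on the log2(TPM + 1) scale, with the 95% interval from limma, for the libraries labelled U11 knockout, each line label and all 6 overexpression libraries. CTGF lies right of 0 in every comparison, and ANKRD1 lies right of 0 in the knockout comparison (0.66) and left of it in line 79 (-0.92).

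Ratios within a library do not depend on its scaling, and show how unequally the targets changed. The ratio of CTGF to CYR61 in TPM was 1.03 and 1.01 in the knockout controls and 1.95 and 1.99 in the labelled libraries. In the overexpression comparison it was 0.365 and 0.39 in the controls, 0.561 and 0.539 in line 79, 0.467 and 0.46 in line 86 and 0.414 and 0.422 in line 87. The libraries of each line stood together, and all 6 were above the controls. The ratio of CTGF to ANKRD1 was 1.18 and 1.05 in the knockout controls and 2.38 and 2.08 in the labelled libraries. It was 2.03 and 2.01 in the overexpression controls, 6.64 and 6.10 in line 79, 3.46 and 2.99 in line 86 and 3.02 and 2.65 in line 87, where lines 86 and 87 overlapped. These ratios were chosen after the values were seen and carry no test.

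The change of CTGF in the knockout comparison exceeded that in the overexpression comparison by 1.26 ± 0.26 on the log2 scale (limma, all 12 libraries, adjusted P = 0.0298), 1 of 8 genes against 3.36% of all genes. The libraries of a line were again treated as independent. For ANKRD1, whose values in the comparisons were 0.66 and -0.54, the difference was 1.20 ± 0.33 with an adjusted P of 0.0732. CYR61 (0.65, adjusted P = 0.107) and AMOTL2 (0.88, adjusted P = 0.269) were not called either. The library name prefix and the histone level differ with the comparison, and their part in these differences was not tested.

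The other pathway genes showed no common direction in the overexpression libraries. Of the 22 conserved targets, CCDC80 rose (0.83, limma adjusted P = 0.0146) and TGFB2 (-1.01, adjusted P = 0.0202) and NT5E (-0.83, adjusted P = 0.716) fell, with a median of -0.05 against -0.02 for all genes, of which 1.93% were called in either direction. TGFB2 measured 27.2 and 26.9 TPM in the controls against 11.2 to 15.2 TPM in the overexpression libraries, and CCDC80 11.7 and 13.2 TPM against 20.6 to 24.2 TPM. TEAD2, a TEAD paralog, rose by 0.63 (adjusted P = 0.405), and none of the 26 kinase core and regulator genes was called.

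By line, 12 of the 22 targets differed in the F test, as did TEAD1 and YAP1 among 8 effectors, against 16.0% of all genes. The 12 include CTGF, ANKRD1, CYR61 and LATS2, already described, and 8 of the other 16 targets differed. Among 26 kinase core and regulator genes AMOT, LATS2, MAP4K4 and TAOK3 differed, a share near that of all genes. In line 79, CCDC80 and CTGF rose while ANKRD1, FJX1, MYOF, NT5E and TGFB2 fell. NT5E was at 16.9 and 19.4 TPM there against 44.9 and 49.1 TPM in the controls (-1.33, limma adjusted P = 0.000866), and MYOF, a membrane repair protein, and FJX1, a Golgi protein related to Four-jointed, differed by -0.68 and -0.75. TEAD1 measured 47.0 and 51.0 TPM in line 79 against 82.2 and 74.9 TPM in the controls (-0.67, adjusted P = 0.0104), and it was not called in the other lines. TEAD2 (0.74) and AMOT (0.77) were called up in line 79.

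In line 86, CCDC80 rose (0.76) and TGFB2 (-1.16) and the forkhead factor FOXF2 (-1.27) fell. In line 87, CCDC80 (0.90), F3 (0.65) and TEAD2 (0.61) rose and CRIM1 (-0.67), FOXF2 (-0.78), NT5E (-0.90) and TGFB2 (-1.01) fell. AMOT was listed at 0.00 and 0.0107 TPM in line 87, against 4.66 and 3.42 TPM in the controls and 7.15 and 7.91 TPM in line 79. CDH5 measured 34.1 and 32.2 TPM in line 79 against 3.43 and 3.08 TPM in the controls, and the sum of the other markers of other cell types there was 6.56 to 6.68 TPM, against 3.72 to 5.73 TPM in the controls. Within that sum LYZ ran from 0 to 1.56 TPM in the controls and from 0 to 1.55, 1.68 and 1.57 TPM in lines 79, 86 and 87. In line 86 the sum was 3.9 to 6.96 TPM. In line 87 it was 6.87 to 9.63 TPM. The macrophage-associated CD68 was called up there at 6.27 and 6.31 TPM against 3.22 and 2.72 TPM (limma adjusted P = 0.0645), and the urothelial factor GATA3 was called down at 6.78 and 6.31 TPM against 17.4 and 13.6 TPM (adjusted P = 0.0158). The part of these markers in the values of lines 79 and 87 was not tested.

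**Figure D3:**
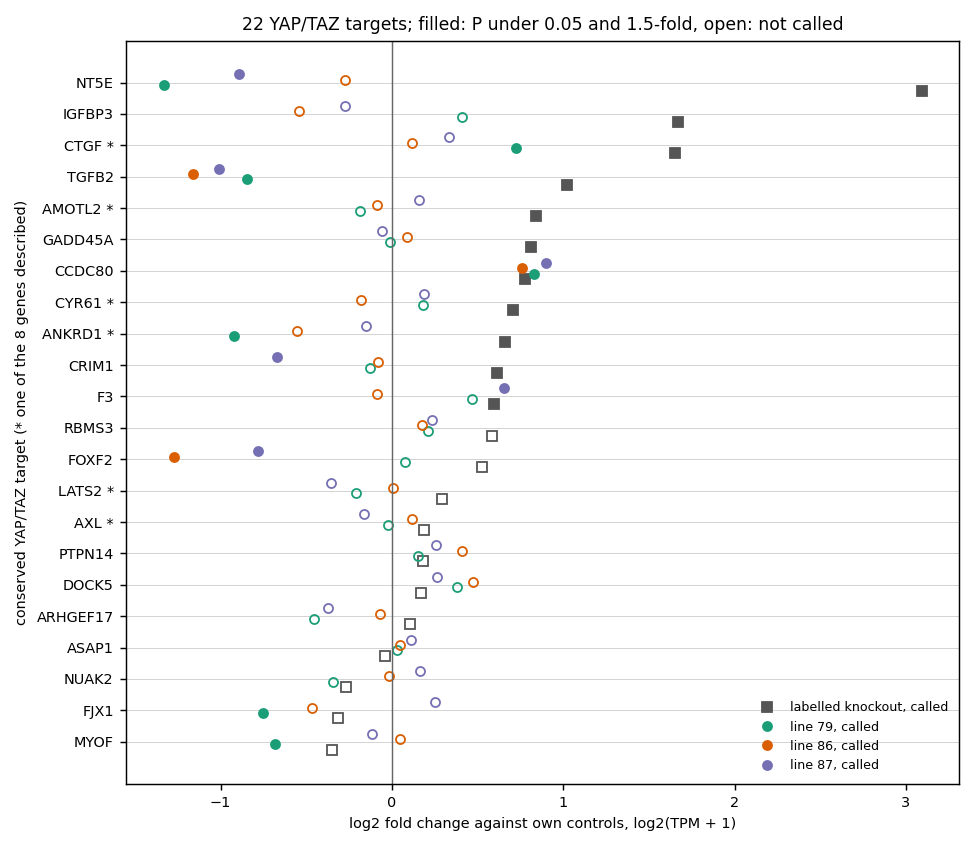
Log2 fold change of the 22 conserved YAP/TAZ targets against their own controls, ordered by the knockout comparison, with filled symbols for genes called (P under 0.05 and at least 1.5-fold) and open symbols for the rest. An asterisk marks genes among the 8 described. NT5E and TGFB2 lie at 3.09 and 1.02 in the knockout comparison and below 0 in all lines, whereas CCDC80 is called up in every comparison.

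The genes whose pattern was most like each called gene were found among 11003 genes with a mean of at least 5 TPM, by the root mean square distance of log2(TPM + 1) centred on the controls over all 12 libraries. For CTGF they were CD55 (0.13), a complement decay factor, FAM46A (0.18) and DIXDC1 (0.19), against a root mean square of 0.75 for CTGF itself. For CYR61 they were the cytokine IL11 (0.091), TOR1AIP2 (0.097) and UHMK1 (0.097), and for ANKRD1 the actin-binding caldesmon CALD1 (0.14), the kinesin KIF18A (0.19) and CLCF1 (0.19). AMOTL2 had no neighbour closer than MAFK (0.23), with its own root mean square at 0.46. The nearest to LATS2 were CHSY1 (0.047), MTMR12 (0.06) and ANKRD28 (0.068), and the nearest to YAP1 were TRNT1 (0.063), ZNF384 (0.075) and BTAF1 (0.077). LATS2 and YAP1 themselves moved little, with root mean squares of 0.209 and 0.188, so small distances are easily reached there. Those of CYR61 and ANKRD1 were 0.322 and 0.523.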

How the data were processed

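RNA of 12 T24 libraries was sequenced. The authors aligned reads to hg38 with Hisat2 and quantified genes with Stringtie, and the deposited tables give per gene the coverage signal (mean aligned bases per position), FPKM and TPM. The authors' TPM were used. FPKM served as an alternative and coverage to show depth. No read counts were analysed here, so no count test was run and TPM carry no counting interval. The labels name polyA RNA, whereas the methods describe depletion of ribosomal RNA. Groups came from the sample labels, and controls were assigned to a comparison by library name prefix.

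Tests took genes that reached 1 TPM in at least 2 libraries of the comparison and were run on log2(TPM + 1) with limma 3.58.1 in R 4.3.3 (lmFit, eBayes with a mean-variance trend), after tests on simulated data. Fold changes are on that scale and understate those of low genes. Called means the study's thresholds, an unadjusted P under 0.05 and at least 1.5-fold, with Benjamini-Hochberg adjusted P beside it, and line and comparison differences used adjusted P under 0.05 alone. Named genes were the 8 genes, list genes called in the comparison described, and the 3 nearest genes of each member called or differing. WWTR1, which was not called, was named and the ratios within a library were chosen after the values were seen, and cell type markers were named to check the cell line. Members and lists were chosen with earlier results of these data known. Alternatives were a pseudocount of 0.1, FPKM, median ratio scaling, quantile normalization, leaving out the 10 highest genes, other filters, no trend, replicate blocks, line means, all 4 controls, other call thresholds and each library left out. Shared replicate numbers did not pair the knockout libraries (correlation of deviations 0.024). Python 3.11.15, pandas 2.3.3, numpy 2.4.6 and matplotlib 3.10.9 were used.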

Additional observations from a re-analysis of the deposited data

Results flagged for a closer look

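Levels differed between the line labels 79, 86 and 87 for 5 of the 8 genes, by the limma F test over the lines. That test compares the lines with each other and does not use the controls. The adjusted P values were 0.00295 for CTGF, 0.00675 for ANKRD1, 0.0106 for CYR61, 0.0447 for YAP1 and 0.0475 for LATS2, against 16.0% of all genes with an adjusted P under 0.05. CTGF was highest and ANKRD1 lowest in line 79, whose U11 level (0.183 and 0.412 TPM) lay between its controls. Line 86 had U11 at 3.98 and 3.72 TPM, CTGF at 324 and 308 TPM and ANKRD1 at 93.6 and 103 TPM. Line 87 had U11 at 61.9 and 53.6 TPM, CTGF at 371 and 364 TPM and ANKRD1 at 123 and 137 TPM. The controls held CTGF at 286 and 296 TPM and ANKRD1 at 141 and 148 TPM. Whether either gene follows the U11 level was not tested. Dixon's ratio over the 6 overexpression libraries stayed under its 95% critical value for all 8 genes, and was largest, at 0.562, for the highest AXL library (532 TPM, line 86).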

How the results depend on the processing

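In the knockout comparison, 4 genes were called in TPM, 2 with median ratio scaling (AMOTL2, CTGF), 0 against all 4 controls and 3 to 4 with single libraries left out. CTGF kept its call in all of these except all 4 controls (1.13, adjusted P = 0.681). Without a library labelled U11 knockout its adjusted P was 0.133 or 0.114, the lone library then assumed to vary like the controls. The fit with median ratio scaling called 1551 of all 14356 genes, and that against all 4 controls called 976 of all 15433. Against all 4 controls, which join the different library name prefixes, CYR61 was at -0.53, AXL at -0.27, LATS2 at -0.16 and YAP1 at -0.61. YAP1 also reversed in FPKM (-0.053), median ratio (-0.10), quantile (-0.039) and without the 10 highest genes (-0.006), and ran from -0.06 to 0.15 with single libraries left out, as AJUBA did from -0.44 to 0.16.

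In the overexpression comparison, 0 genes were called, 1 without a fold threshold (ANKRD1) and 0 to 1 with libraries left out, ANKRD1 being called without either library of line 87. Against all 4 controls, which join the different library name prefixes, 2 were called (CTGF, CYR61). That fit called 3233 of all 16134 genes, with a median log2 fold change of 0.394. All 4 controls gave AMOTL2 0.33, AXL 0.44, LATS2 0.26, AJUBA 0.54 and YAP1 0.48, and line means gave AMOTL2 0.01. With libraries left out AMOTL2 ran from -0.13 to 0.082 and AXL from -0.12 to 0.08.

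Line 79 had 2 calls throughout. AXL there was 0.023 with median ratio scaling, and with libraries left out AXL ran from -0.12 to 0.081 and AMOTL2 from -0.63 to 0.26. Line 86 had 0 to 1 calls with libraries left out (ANKRD1 without replicate 5), and LATS2 there was -0.014 in FPKM, -0.005 with median ratio scaling and -0.012 with quantile normalization. Left-out ranges in line 86 were -0.045 to 0.054 for LATS2, -0.15 to 0.39 for AXL, -0.46 to 0.28 for AMOTL2, -0.037 to 0.12 for AJUBA and -0.094 to 0.073 for YAP1. In line 87 AMOTL2 ran from -0.11 to 0.43.

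The 5 genes that differed between lines became 3 (ANKRD1, CTGF, CYR61) in FPKM, with median ratio scaling, quantile normalization, no filter or no trend, and 2 to 3 with libraries left out (ANKRD1 and CTGF without overexpression replicate 5). The 1 gene that differed between comparisons (CTGF) became 0 with median ratio scaling (1.10) and 0 to 2 with libraries left out, 0 without any knockout library or overexpression control. AJUBA reversed there in FPKM (-0.087), median ratio (-0.15), quantile (-0.085) and without the 10 highest genes (-0.044), and ran from -0.28 to 0.31.

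In the knockout comparison, the effectors called went from 2 to 1 with median ratio scaling, 0 with quantile normalization and 1 at adjusted P, the kinase core genes from 4 to 1 at adjusted P, and the conserved targets from 11 to 7 with median ratio scaling. In the overexpression comparison the effector called was lost at adjusted P (0). The paired fit with a replicate block called 4 genes in the knockout comparison, and between lines 4 genes with YAP1 lost (adjusted P = 0.0518). The replicate block left the other calls as they were. All-gene calls up and down in the knockout comparison, of 14356 genes, were 1236 and 452 in TPM and 686 and 298 at adjusted P. They were 775 and 776 with median ratio scaling, 725 and 570 in FPKM and 751 and 681 with quantile normalization. The 2 libraries a group limit every value, and the cause of these shifts was not tested.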
